A study of Mus musculus with 4 samples.

Results

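Resident cardiac fibroblasts make and maintain the collagen network between cardiomyocytes, and in an uninjured heart they are recognised by a small set of transcripts. After ischemic injury some of these cells leave the resident state and turn into matrix-secreting activated fibroblasts. The 10 genes followed here are named by symbol among the 32285 genes of the deposited matrices, and all 10 had UMIs (unique molecular identifiers, 1 per captured transcript) in every library. They are the receptor gene Pdgfra, the transcription factor gene Tcf21, the proteoglycan genes Dcn and Lum, the matrix glycoprotein genes Fbln1 and Mfap5, the actin-severing protein gene Gsn, the dipeptidase gene Dpep1, the transporter gene Abca8a and the serine protease gene Htra3.

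The data are 4 droplet libraries of left ventricle from wild-type male C57BL/6J mice, with 1 library for each condition and no replicate, and how many animals each came from is not stated. Young mice of 3 to 5 months and aged mice of 24 to 26 months were either sham-operated or subjected to 45 min of ischemia and 24 h of reperfusion (I/R). The sample titles and the study both give sham conditions for the sham hearts, which the labels also describe as healthy. The labels give the molecule as nuclear RNA, where the study's methods describe whole cells. Because each condition is a single library, no test between conditions could be made, and age or injury cannot be told apart from the animal or the preparation. Intervals given below are 95% intervals that cover counting error only.

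The libraries, always given here as young sham and I/R followed by aged sham and I/R, hold 92200, 102883, 100342 and 91124 barcodes with median UMI numbers of 244, 374, 391 and 675. With so many barcodes of so few UMIs, how many hold a cell or nucleus was not determined, and pairs, shares of barcodes and levels by barcode class below refer to barcodes, not cells. Between 7.44% and 7.92% of the barcodes of a library also occur in another library. The young sham library stands apart in Malat1, a nuclear transcript, which took 7.34% of its UMIs against 2.22% to 4.33% in the others. Levels were taken as CPM, the UMI count of a gene scaled to the library's total UMIs. On that scale the median gene had a log2 ratio of -0.44 in young I/R over young sham, 0.09 in aged I/R over aged sham, -0.14 in aged over young sham and 0.43 in aged over young I/R, so the values relative to that median stand beside the ratios of the members.

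All 10 genes are protein coding and lie on 7 chromosomes of GRCm38, the build of the deposited data, in the GENCODE M21 annotation. Dcn (chr10:97479609-97518143) and Lum (chr10:97565128-97572703) are neighbours on the same strand, 46984 bases apart. Tcf21 (chr10:22817281-22820174) is a short gene on the same chromosome. Pdgfra (chr5:75152292-75198215) and Htra3 (chr5:35652023-35679782) share chromosome 5. Abca8a (chr11:110025634-110095978) sits beside its paralogue Abca8b (chr11:109932190-109995845), and reads of these related genes may be hard to separate. The remaining members are Gsn (chr2:35256380-35307892), Mfap5 (chr6:122505845-122529290), Dpep1 (chr8:123186242-123201812) and Fbln1 (chr15:85205949-85286535). Exons of Pdgfra share 456 bases with the antisense gene Gm42802, which is counted separately in the matrices, and how the counting used strand is not given in the sources used here.

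Abca8a, Htra3 and Tcf21 had the lowest ratios of the set after I/R in young hearts, so the RefSeq sequence upstream of each is shown (GRCm38.p6). Each run is 200 bases, 5′ to 3′ on the gene's own strand, and ends 50 bases before the RefSeq start.
Abca8a, chr11:110095988-110096187, minus strand: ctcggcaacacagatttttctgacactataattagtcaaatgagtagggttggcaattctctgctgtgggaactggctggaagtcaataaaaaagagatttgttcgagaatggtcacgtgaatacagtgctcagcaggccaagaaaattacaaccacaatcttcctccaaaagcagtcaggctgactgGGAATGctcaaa
Htra3, chr5:35679831-35680030, minus strand: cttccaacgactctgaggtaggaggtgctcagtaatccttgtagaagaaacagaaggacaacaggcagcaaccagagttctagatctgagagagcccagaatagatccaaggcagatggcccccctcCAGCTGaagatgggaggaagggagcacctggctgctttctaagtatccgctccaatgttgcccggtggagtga
Tcf21, chr10:22820194-22820393, minus strand: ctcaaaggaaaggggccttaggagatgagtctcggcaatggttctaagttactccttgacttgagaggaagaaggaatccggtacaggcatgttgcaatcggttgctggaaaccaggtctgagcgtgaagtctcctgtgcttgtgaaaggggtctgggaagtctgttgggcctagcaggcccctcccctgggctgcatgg
Capitals mark matches, on either strand, to the letters CAGCTG (an E-box, the kind of site that bHLH factors such as Tcf21 bind) and CATTCC (bound by TEAD factors), with no overlap between them. CAGCTG occurs in 10.3% of all 32851 promoters taken in the same way and CATTCC in 10.7%. Of the 7 members with an upstream sequence, CAGCTG was found for Gsn and Htra3, CATTCC for Abca8a and Dpep1, and the GC box GGGCGG, which occurs in 24.6% of all promoters, for Gsn. TATAAA, in 9.14% of all promoters, and TGACTCA or TGAGTCA, in 3.61%, were found for 0 of the 7 members. The 3 sequences share none of the 5 motifs.

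Summed over all barcodes, the 10 genes together reached 1211 CPM (1197 to 1224) in young sham, 934 (925 to 944) in young I/R, 1657 (1645 to 1670) in aged sham and 1130 (1122 to 1138) in aged I/R. The aged sham heart was thus the highest and the young I/R heart the lowest, and no neighbours in this order overlapped. Fewer fibroblasts and less RNA in each fibroblast cannot be told apart in such sums. I/R over sham gave a log2 ratio of -0.37 (-0.40 to -0.35) in young hearts, but 0.07 relative to the median gene, so the direction of the sum in young hearts depends on the scaling. In aged hearts it was -0.55 (-0.57 to -0.54), and -0.64 relative to the median gene. In the same comparisons the summed CPM of other cell types' marker genes had log2 ratios of -0.41 and 0.03 for endothelial, -0.44 and -0.07 for mural, -0.47 and 0.12 for macrophage, -0.19 and 0.21 for cardiomyocyte, -0.39 and -0.72 for erythroid and 2.85 and 2.06 for neutrophil genes. Gm42418 took 11.5%, 19.4%, 14.0% and 13.8% of the UMIs of the 4 libraries. The part of these shifts in the member ratios was not tested. Gsn held 46.9%, 54.0%, 52.1% and 39.9% of the summed UMIs and Dcn 22.6%, 23.4%, 23.1% and 33.7%, so the sum mostly follows these genes.

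**Figure D1:**
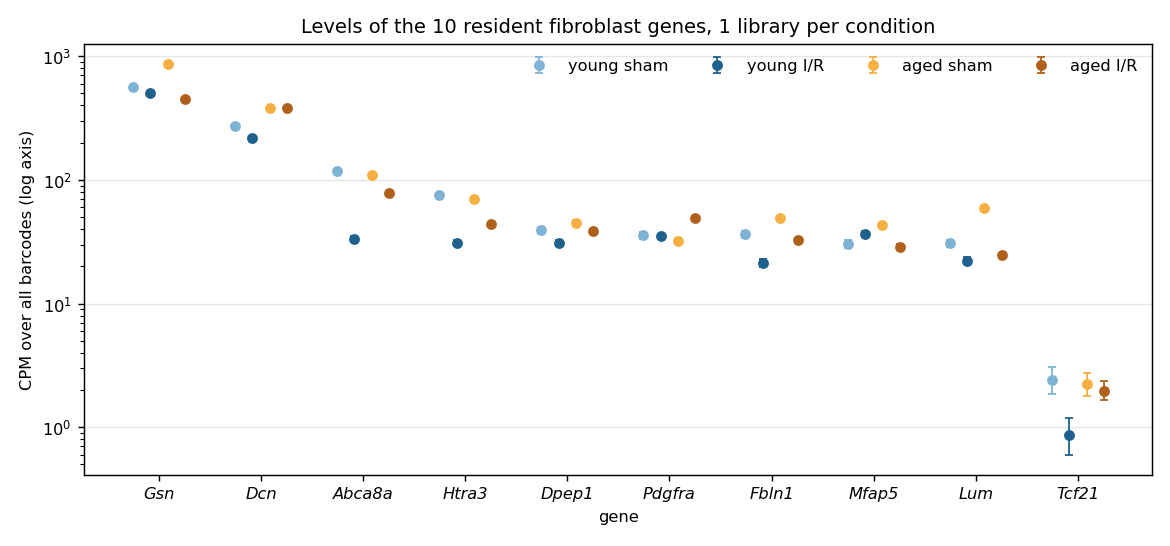
Levels of the 10 genes (x axis) as CPM over all barcodes on a log axis (y axis), with 1 point per library and bars for the 95% counting interval. Abca8a, Htra3 and Tcf21 sit lowest in young I/R, Lum and Gsn sit highest in aged sham, and Pdgfra sits highest in aged I/R.

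Pdgfra, the receptor for platelet-derived growth factors and a surface marker of cardiac fibroblasts, had 35.8 CPM (33.6 to 38.2) in young sham, 34.9 (33.1 to 36.8) in young I/R, 32.0 (30.3 to 33.8) in aged sham and 49.5 (47.8 to 51.2) in aged I/R. The aged I/R library was above all others, and the 2 young libraries did not differ beyond counting error. Between I/R and sham the log2 ratio came to -0.04 (-0.16 to 0.08) in young hearts, which becomes 0.40 relative to the median gene, and 0.63 (0.54 to 0.72) in aged hearts, 0.54 relative to the median gene. Aged minus young, the ratios differed by 0.67 (0.52 to 0.82). In the scaling relative to the median gene this difference was 0.14.

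Tcf21, a bHLH transcription factor needed for epicardial cells to become fibroblasts, was rare, with 62, 34, 92 and 132 UMIs. These make 2.40 CPM (1.84 to 3.08) in young sham, 0.857 (0.593 to 1.2) in young I/R, 2.22 (1.79 to 2.73) in aged sham and 1.98 (1.65 to 2.34) in aged I/R. Young I/R was below the other libraries, whose intervals overlapped. The young I/R ratio was -1.49 (-2.13 to -0.86), or -1.04 relative to the median gene, and the aged I/R ratio -0.17 (-0.57 to 0.23), or -0.26 relative to the median gene.

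Dcn encodes decorin, a small leucine-rich proteoglycan that binds collagen fibrils, and it had 274 CPM (268 to 281) in young sham, 219 (214 to 223) in young I/R, 383 (377 to 389) in aged sham and 381 (376 to 386) in aged I/R. Both aged libraries lay above both young ones and did not differ in CPM beyond counting error, with an aged I/R ratio of -0.01 (-0.04 to 0.02). Relative to the median gene this ratio was -0.10 (-0.12 to -0.07), below 0 beyond counting error. The young I/R ratio was -0.33 (-0.37 to -0.28), which turns to 0.12 relative to the median gene.

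Lum encodes lumican, a proteoglycan of the same family, and had 30.7 CPM (28.6 to 32.9) in young sham, 22.2 (20.7 to 23.7) in young I/R, 59.3 (57.0 to 61.7) in aged sham and 24.6 (23.5 to 25.9) in aged I/R. Aged sham stood far above the rest, and the intervals of the 2 I/R libraries overlapped, with a ratio of aged over young of 0.15 (0.03 to 0.27) that turns to -0.27 relative to the median gene. Its log2 ratio was -0.47 (-0.61 to -0.33) for young I/R, -0.03 relative to the median gene, and -1.27 (-1.36 to -1.18) for aged I/R, -1.35 relative to the median gene, the lowest of the 10 genes in that comparison. Aged over young sham, Lum had the highest ratio of the set at 0.95 (0.84 to 1.07), or 1.09 relative to the median gene. Thus Lum and its neighbour Dcn both had higher levels in the aged sham heart, and in aged I/R the ratio of Lum was far below that of Dcn on both scales.

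Fbln1, the gene of the basement membrane and elastic fibre protein fibulin-1, had 36.5 CPM (34.2 to 38.9) in young sham, 21.2 (19.8 to 22.7) in young I/R, 49.4 (47.2 to 51.5) in aged sham and 32.4 (31.0 to 33.8) in aged I/R. It was lower after I/R at both ages, by log2 ratios of -0.78 (-0.92 to -0.64) and -0.61 (-0.70 to -0.52), and also relative to the median gene at -0.34 and -0.69. Mfap5, a glycoprotein of elastic microfibrils, had 30.5 CPM (28.4 to 32.7) in young sham, 36.8 (34.9 to 38.7) in young I/R, 42.9 (40.9 to 44.9) in aged sham and 28.8 (27.5 to 30.1) in aged I/R. Its ratios had opposite signs, at 0.27 (0.15 to 0.40) in young and -0.58 (-0.67 to -0.48) in aged hearts, and 0.71 and -0.66 relative to the median gene. In CPM no other member had opposite signs beyond counting error, whereas relative to the median gene Gsn and Dcn did too.

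Gsn, which encodes the actin-severing protein gelsolin, had 568 CPM (559 to 577) in young sham, 505 (498 to 512) in young I/R, 864 (855 to 873) in aged sham and 451 (446 to 456) in aged I/R. Aged sham was the highest library and aged I/R the lowest, and none of the 4 intervals overlapped. The aged I/R ratio was -0.94 (-0.96 to -0.92) and stayed low relative to the median gene at -1.03. The young I/R ratio was -0.17 (-0.20 to -0.14), or 0.27 relative to the median gene, and so changed direction with the scaling.

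Abca8a, a membrane transporter of the ABCA subfamily, had 119 CPM (115 to 123) in young sham, 33.1 (31.4 to 35.0) in young I/R, 109 (106 to 112) in aged sham and 78.9 (76.8 to 81.1) in aged I/R. Young I/R lay far below the other 3 libraries, and none of the 4 overlapped. Its young I/R ratio of -1.84 (-1.94 to -1.75) was the lowest of all members in any comparison and remained at -1.40 relative to the median gene, while the aged I/R ratio was -0.47 (-0.52 to -0.41), or -0.55 relative to the median gene. Aged minus young, the ratios differed by 1.38 (1.27 to 1.49), and by 0.85 relative to the median genes.

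Htra3, a secreted serine protease, had 75.2 CPM (71.9 to 78.6) in young sham, 30.9 (29.2 to 32.7) in young I/R, 70.2 (67.7 to 72.8) in aged sham and 44.0 (42.4 to 45.6) in aged I/R. The intervals of the sham hearts overlapped, with a ratio of aged over young of -0.10 (-0.18 to -0.02) that turns to 0.04 relative to the median gene, and both I/R hearts were lower, with ratios of -1.28 (-1.39 to -1.18) in young and -0.67 (-0.75 to -0.60) in aged hearts. Relative to the median gene these were -0.84 and -0.76. Dpep1, a dipeptidase anchored in the cell membrane, had 39.0 CPM (36.6 to 41.5) in young sham, 31.0 (29.3 to 32.8) in young I/R, 44.9 (42.9 to 47.0) in aged sham and 38.4 (37.0 to 39.9) in aged I/R. Young sham and aged I/R did not differ beyond counting error, and the young I/R ratio of -0.33 (-0.45 to -0.21) was 0.11 relative to the median gene.

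Counted by a 1.5-fold limit, 0 of the 9 members with at least 100 UMIs were higher in young I/R and 3 were lower, compared with the young sham heart, where 5.35% of all genes were higher and 41.9% lower. These 3 were Abca8a, Htra3 and Fbln1, a share near that of all genes. Tcf21, with 96 UMIs over both libraries, would make it 4 of 10 at a minimum of 20 UMIs, and relative to the median gene Fbln1 no longer passed the limit. In aged I/R against aged sham, 1 of 10 members was at least 1.5-fold higher, against 14.4% of all genes, and 4 were at least 1.5-fold lower (Lum, Gsn, Htra3 and Fbln1), against 7.43% of all genes. For aged over young sham the counts were 2 higher (Lum and Gsn) against 6.12% of all genes and 0 lower against 16.9%. For aged over young I/R they were 4 higher (Abca8a, Tcf21, Dcn and Fbln1) against 39.3%, and 0 lower against 3.29%. The median member ratio was -0.33, -0.52, 0.32 and 0.51 in the 4 comparisons, beside -0.44, 0.09, -0.14 and 0.43 for all genes. The 4 comparisons share libraries pairwise, so they are not independent of each other.

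**Figure D2:**
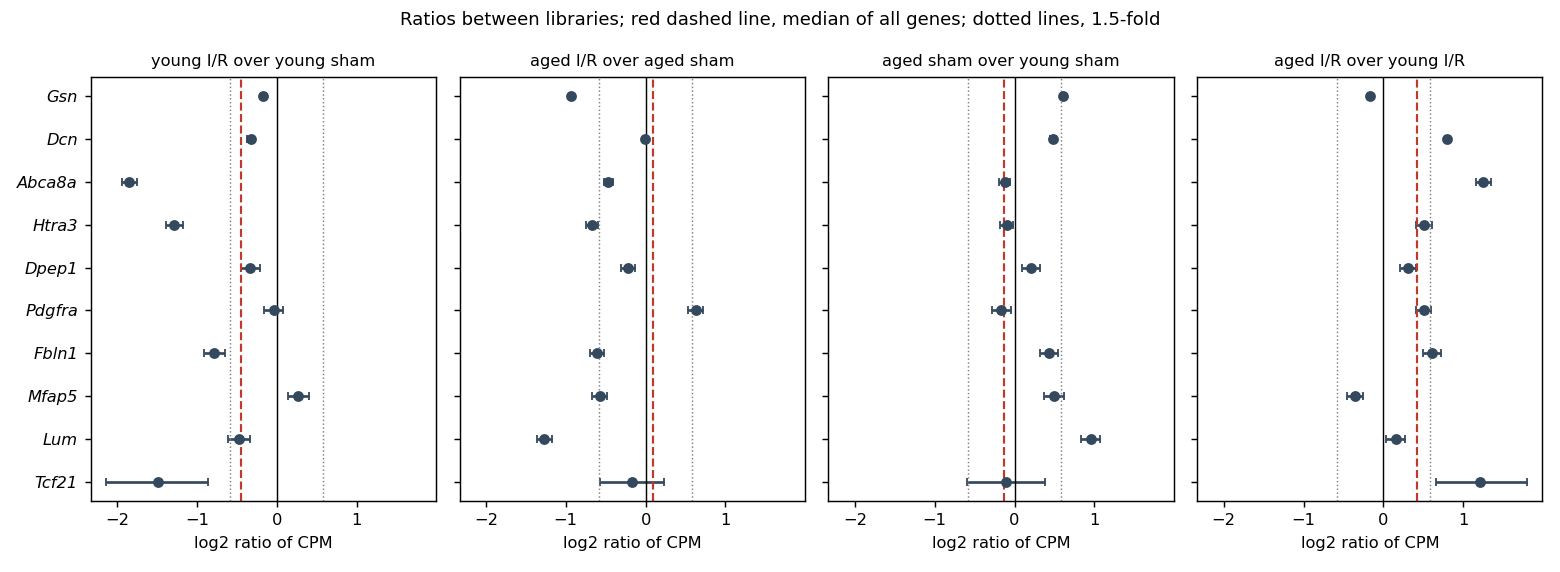
Log2 ratios of CPM (x axis) of the 10 genes (y axis) in the 4 comparisons, with bars for the 95% counting interval, a dashed line at the median of all genes and dotted lines at 1.5-fold. In young I/R the ratios run from -1.84 for Abca8a to 0.27 for Mfap5 around a gene median of -0.44, so Pdgfra, Dcn, Gsn and Dpep1 change direction relative to it, as Abca8a, Tcf21 and Htra3 do in aged over young sham and Lum and Dpep1 in aged over young I/R. In aged I/R 7 members lie below 0 beyond counting error and keep that direction relative to the median.

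The ratio of each member was also set against that of the summed other members, which no library scaling can alter. By this measure Abca8a was at -1.57, Tcf21 at -1.11 (-1.72 to -0.51), Htra3 at -0.95 and Fbln1 at -0.42 in young I/R. Mfap5 was at 0.67 there, Gsn at 0.41 and Pdgfra at 0.35. In aged I/R Pdgfra was at 1.22 and Dcn at 0.76, and Lum at -0.74 and Gsn at -0.72. For members other than Gsn, the summed others hold much Gsn, whose own aged I/R log2 ratio in CPM was -0.94. In CPM Dcn itself was at -0.01 there and Pdgfra at 0.63. The set therefore did not move as a block in either comparison. Malat1 had a log2 ratio of -1.72 in young I/R, 0.59 in aged I/R, -1.35 in aged over young sham and 0.96 in aged over young I/R. The ratios of Abca8a, Htra3 and Tcf21 were low in young I/R, where Malat1 was low, but near 0 in aged over young sham. In CPM they were 1.25, 0.51 and 1.21 in aged over young I/R, and -0.47, -0.67 and -0.17 in aged I/R. The part of Malat1 in these ratios was not tested.

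Other genes of the same families were counted by the 1.5-fold limit among those with at least 100 UMIs. Lower counts are to be read against the 41.9% of all genes lower in young I/R and the 7.43% lower in aged I/R. Higher counts are to be read against the 5.35% of all genes higher in young I/R and the 14.4% higher in aged I/R. The 20 fibroblast genes outside the set (collagens and other markers) were at least 1.5-fold lower in young I/R in 15 cases and higher in 0, but lower in 3 and higher in 1 relative to the median gene. In aged I/R 6 were lower and 0 higher, and 7 and 0 relative to the median gene. The 4 most counted were the collagen genes Col3a1, with 134, 75.4, 129.7 and 131 CPM, and Col1a2, with 91.3, 59.1, 94.0 and 92.3 CPM, the cytoglobin gene Cygb, with 89.3, 35.6, 118 and 74.0 CPM, and Pi16, a marker of adventitial fibroblasts, with 78.1, 41.2, 98.9 and 41.3 CPM. In aged hearts Col3a1 and Col1a2 were thus level between sham and I/R while Pi16 was lower after I/R. Not every collagen gene of the list was level there. The aged I/R log2 ratio was -1.20 for Col15a1, against 0.17 for Col5a1 and 0.04 for Col5a2. Genes of activated fibroblasts had 8 of 15 at least 1.5-fold higher and 3 lower in young I/R, and 5 higher and 5 lower of 15 in aged I/R (8 and 1, and 4 and 5, relative to the median gene). Acta2, the smooth muscle actin gene that mural cells also use, had 82.1, 80.6, 93.1 and 71.5 CPM. Timp1, an inhibitor of metalloproteinases, had 3.41, 75.3, 18.5 and 45.9 CPM. Fn1, the fibronectin gene, had 24.3, 46.2, 33.6 and 76.8 CPM. Postn, the periostin gene, had 45.6, 33.7, 108 and 61.0 CPM, so that like Lum it was highest in aged sham.

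Among the smaller families, 3 of the 4 transporter genes beside Abca8a were at least 1.5-fold lower in young I/R and 0 were higher, and this held relative to the median gene. Abca9 had 39.0, 10.6, 27.7 and 32.3 CPM, and Abca8b 39.3, 10.9, 28.3 and 25.7 CPM. These neighbours of Abca8a were thus also lowest in young I/R. Of 3 other HTRA proteases 2 were lower in young and 1 in aged I/R (1 and 1 relative to the median gene), and the most counted, Htra1, had 41.6, 31.6, 44.2 and 27.0 CPM. Small leucine-rich proteoglycans other than Dcn and Lum were lower for 3 of 5 in young and 4 of 7 in aged I/R (2 and 5 relative to the median gene), with biglycan (Bgn) at 173, 146, 272 and 154 CPM and osteoglycin (Ogn) at 86.3, 32.2, 71.6 and 48.5 CPM. Of the 5 genes of PDGF ligands and the other receptor, 1 was lower and 0 higher in young I/R (0 and 0 relative to the median gene), and 1 (Pdgfb, at 53.6 and 96.6 CPM) was higher in aged I/R. Other fibulin family genes were lower for 2 of 5 in young and 1 of 5 in aged I/R (1 and 1 relative to the median gene), with Fbln2 at 98.7, 94.6, 85.8 and 111 CPM and the hemicentin gene Hmcn1 at 212, 28.9, 82.4 and 86.6 CPM. Microfibril and elastic fibre genes were lower for 3 of 6 and 1 of 7 (1 and 1 relative to the median gene), with the fibrillin gene Fbn1 at 83.1, 68.2, 86.1 and 92.1 CPM, and neither list had a gene that was at least 1.5-fold higher after I/R. In the gelsolin family 1 of 3 was higher in young and 1 of 5 in aged I/R, where the most counted, Svil, had 257.7, 190.4, 230.0 and 342 CPM. The only measured gene among the other membrane dipeptidases, Dpep2, was lower in young I/R, though not relative to the median gene, and higher in aged I/R. The 3 bHLH genes whose products pair with Tcf21 were all lower in young I/R, where Tcf4 had 234 CPM after 464 in young sham, and 0 of 3 passed the limit in aged I/R. Relative to the median gene 0 of the 3 passed it in young I/R.

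Pairs of members in the same barcode were counted and set against the number expected if the genes were spread independently over barcodes of the same UMI total. Over all 45 pairs the observed number was 1.23 times the expected number (1.2 to 1.27) in young sham, 1.09 (1.05 to 1.12) in young I/R, 1.07 (1.05 to 1.08) in aged sham and 1.06 (1.04 to 1.07) in aged I/R. Pooled in this way, pairs of members thus met more often than chance at equal depth, by a small margin, and most in young sham. Most of the pairs observed hold Gsn. A barcode with several members counts in several pairs. Counted as barcodes with at least 2 members, aged I/R did not differ from expectation beyond counting error (1.005, 0.989 to 1.022). Intervals over pooled pairs, here and below, treat pairs as independent and may be too narrow. With each barcode thinned to 200 UMIs the ratios were 1.26, 1.09, 1.06 and 1.07. In no library was any pair below 1 beyond counting error. Gsn was detected in 14.1%, 17.3%, 28.8% and 27.2% of barcodes, Pdgfra in 0.990%, 1.33%, 1.30% and 3.52%. These shares carry the depth of the libraries, and at 200 UMIs per barcode they were 10.6%, 9.64%, 15.8% and 8.64% for Gsn and 0.747%, 0.713%, 0.629% and 0.962% for Pdgfra.

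Over the 4 libraries together, 21 of the 45 pairs had an interval above 1, and 21 were above 1 in each library. The share of other gene pairs that do so is not given here. These counts thus cannot be read as particular to the members. Pdgfra and Htra3 were together in 286 barcodes where 200 were expected (1.43, 1.27 to 1.61), with 1.98, 1.47, 1.40 and 1.33 in the single libraries. Abca8a and Htra3 met in 548 barcodes for 408 expected (1.34, 1.23 to 1.46), Mfap5 and Htra3 in 217 for 163 (1.33, 1.16 to 1.52), and Dpep1 and Abca8a in 397 for 302 (1.31, 1.19 to 1.45). The highest ratios with an interval above 1 were thus those of Htra3, Abca8a, Pdgfra, Mfap5 and Dpep1 with each other. Dcn and Gsn, the most often detected pair, met in 14001 barcodes for 13390 expected, a ratio of only 1.05 (1.03 to 1.06). The chromosomal neighbours Dcn and Lum reached 1.08 (1.02 to 1.15). Pairs of Pdgfra with Fbln1 (0.94, 0.79 to 1.12) and with Lum (0.90, 0.73 to 1.08) did not differ from 1 beyond counting error, and with 12 barcodes or fewer per pair, no ratio of Tcf21 with Pdgfra, Lum, Dpep1, Fbln1, Mfap5 or Htra3 could be resolved.

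**Figure D3:**
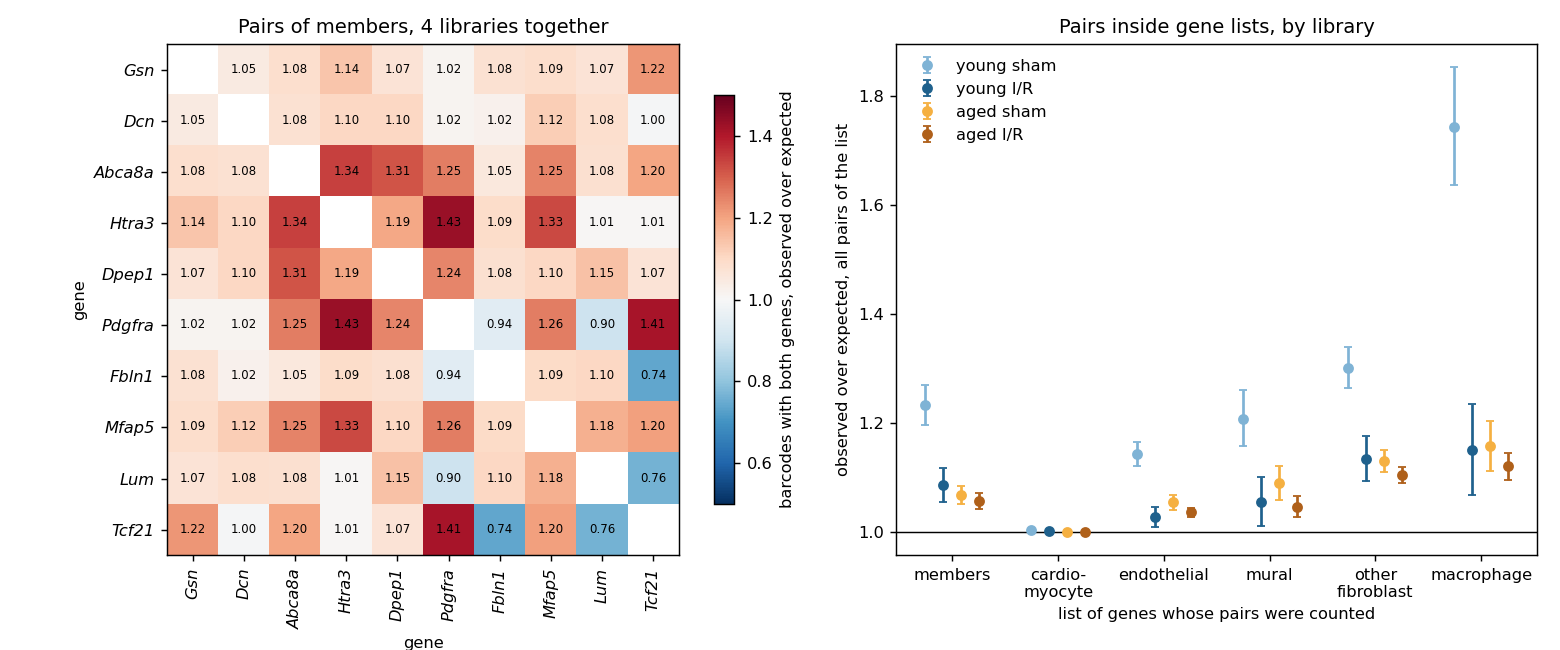
Left, observed over expected number of barcodes with both genes for the 45 pairs in the 4 libraries together, with genes on both axes and the ratio as colour and number. Right, the same ratio over all pairs of a gene list (x axis) in each library (y axis, bars for 95% counting intervals), where the members run from 1.06 to 1.23, cardiomyocyte genes stay at 1.0 and the young sham library is highest for each of the other lists shown.

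Higher counts of members in a barcode departed further from chance. In young sham 371 barcodes held at least 3 members, 1.75 times the expected number (1.58 to 1.94), against 1.25 (1.11 to 1.40) in young I/R, 1.17 (1.11 to 1.23) in aged sham and 1.11 (1.07 to 1.16) in aged I/R. At least 4 members were found in 29, 10, 172 and 354 barcodes, which is 3.35, 1.17, 1.71 and 1.55 times the expected number, with an interval that includes 1 in young I/R (0.56 to 2.14). The most members in any barcode were 5, 4, 6 and 6 of 10. Barcodes with at least 3 members had median UMI numbers of 358, 478, 522 and 924, above those of their libraries.

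Members met the 20 other fibroblast genes 1.27, 1.07, 1.08 and 1.06 times as often as under independence. For the activated fibroblast genes the ratios were 1.17, 1.04, 1.06 and 1.02. All 8 intervals lay above 1, but they treat pairs in the same barcode as independent. With endothelial genes the ratios were 1.03, 1.01, 0.998 and 1.01, with mural genes 1.02, 1.01, 0.998 and 0.997, with macrophage genes 1.03, 1.02, 1.01 and 1.01, with cardiomyocyte genes 0.991, 1.0, 0.997 and 0.999, and with hemoglobin and other erythroid genes 1.0, 1.01, 1.0 and 1.01. Excess pairing was thus larger with fibroblast genes than with genes of the other abundant cell types in each library. For rarer lists, members and neutrophil genes gave 1.04, 0.98, 1.02 and 1.02, lymphocyte genes 1.19, 1.03, 0.98 and 1.05, mesothelial genes 1.11, 1.06, 1.13 and 0.97, Schwann cell genes 0.94, 1.14, 0.996 and 1.05 and adipocyte genes 1.62, 1.01, 0.88 and 1.17, with wide intervals. Pairs inside a list, counted the same way, gave 1.30, 1.13, 1.13 and 1.1 for the 20 fibroblast genes, 1.74, 1.15, 1.16 and 1.12 for macrophage genes and 1.0 in all 4 libraries for cardiomyocyte genes. Erythroid genes gave 2.04, 1.36, 1.14 and 1.18. Mesothelial genes gave 25.0 (16.3 to 36.6), 5.40 (0.65 to 19.5), 6.89 (2.77 to 14.2) and 7.90 (5.72 to 10.6), on 26, 2, 7 and 43 pairs observed. Mural genes gave 1.21, 1.05, 1.09 and 1.05 and endothelial genes 1.14, 1.03, 1.05 and 1.04. The pairing of the members was thus weaker than that of erythroid genes, and than that of mesothelial genes where their interval lay above 1. Its ratio was also below those of the 20 fibroblast genes and of macrophage genes in each library. It was near that of mural genes, which was higher in aged sham.

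To ask where member RNA lies, barcodes were marked as fibroblast when at least 2 of the 20 other fibroblast genes were detected, and more than of the endothelial, mural or macrophage lists. This marked 2979, 2078, 6062 and 6645 barcodes, which held 5.98%, 2.91%, 8.45% and 9.59% of the member UMIs. Barcodes with at least 5 cardiomyocyte genes and none of the 4 other lists held 31.1%, 33.6%, 18.2% and 6.90%. Member levels in fibroblast-marked barcodes were 1797, 1119, 1939 and 1295 CPM, against 1137, 920.1, 1629 and 1125 CPM in cardiomyocyte-marked barcodes. In young sham, Gsn, which dominates the sum, had 548 CPM in cardiomyocyte-marked and 568 CPM in all barcodes. Dcn had 260 and 274 CPM there, Lum 27.3 and 30.7 CPM, and Htra3 59.8 and 75.2 CPM. The part of RNA made by cardiomyocytes themselves in these levels was not tested. The fold of fibroblast-marked over cardiomyocyte-marked barcodes was 1.58 (1.5 to 1.66), 1.22 (1.14 to 1.29), 1.19 (1.15 to 1.23) and 1.15 (1.11 to 1.19). In young sham 3.23% of barcodes were fibroblast-marked and 37.1% cardiomyocyte-marked. The shares of member UMIs thus largely carry the sizes of these classes, and most member RNA lay outside the few fibroblast-marked barcodes. Member levels in cardiomyocyte-marked barcodes were close to those of the whole library. Cardiomyocyte genes in turn took 95512, 87558, 93163 and 110196 CPM in fibroblast-marked barcodes, beside 103035, 90236, 96349 and 111472 CPM in all barcodes. The part of free RNA or of barcodes with several cells in these levels was not tested.

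Against cardiomyocyte-marked barcodes, Htra3 in young sham had the largest fold, 141 CPM in fibroblast-marked and 59.8 CPM in cardiomyocyte-marked barcodes, a 2.36-fold difference (1.95 to 2.84), and Abca8a followed with 215 and 107 CPM (2.01, 1.73 to 2.33). At 200 UMIs per barcode, 3.12% of fibroblast-marked and 1.2% of cardiomyocyte-marked barcodes of young sham had an Htra3 UMI, at median depths of 310 and 221 UMIs before thinning. In the remaining 3 libraries the fold was 1.93, 1.54 and 1.63 for Abca8a and 1.67, 1.45 and 1.54 for Mfap5. Dcn was at 1.40, 1.27, 1.18 and 1.03 and Gsn at 1.46, 1.1, 1.12 and 1.15. Lum, at 0.93 in young and 0.92 in aged I/R, and Dpep1, at 1.0 in aged I/R, did not differ between these classes there beyond counting error. Across members with a value, 9 of 10 had an interval above 1 in young sham and 6 of 9 in young I/R. In aged sham it was 7 of 10 and in aged I/R 5 of 10, and none was below 1 beyond counting error. The share of all genes with such an interval is not given here, so these counts cannot be read as particular to the members. Against endothelial-, mural- and macrophage-marked barcodes the median fold of the members with a value was 1.81, 1.46 and 2.09 in young sham and between 1.15 and 1.24 in the other libraries, with up to 3.19 (1.29 to 10.2) for Abca8a over macrophage-marked barcodes in young I/R. In the same order, 8 of 10, 5 of 10 and 5 of 9 members had an interval above 1 in young sham. In young I/R it was 4, 2 and 2 of 9. In aged sham it was 7 of 10, 5 of 9 and 3 of 10, and in aged I/R 8, 7 and 6 of 10. The limit given above for such counts holds here too. Tcf21, with 2, 0, 6 and 12 UMIs in fibroblast-marked barcodes, could not be resolved. For its 0 UMIs in young I/R a limit of 3 counts, in place of the exact interval, corresponds to 3.12 CPM.

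**Figure D4:**
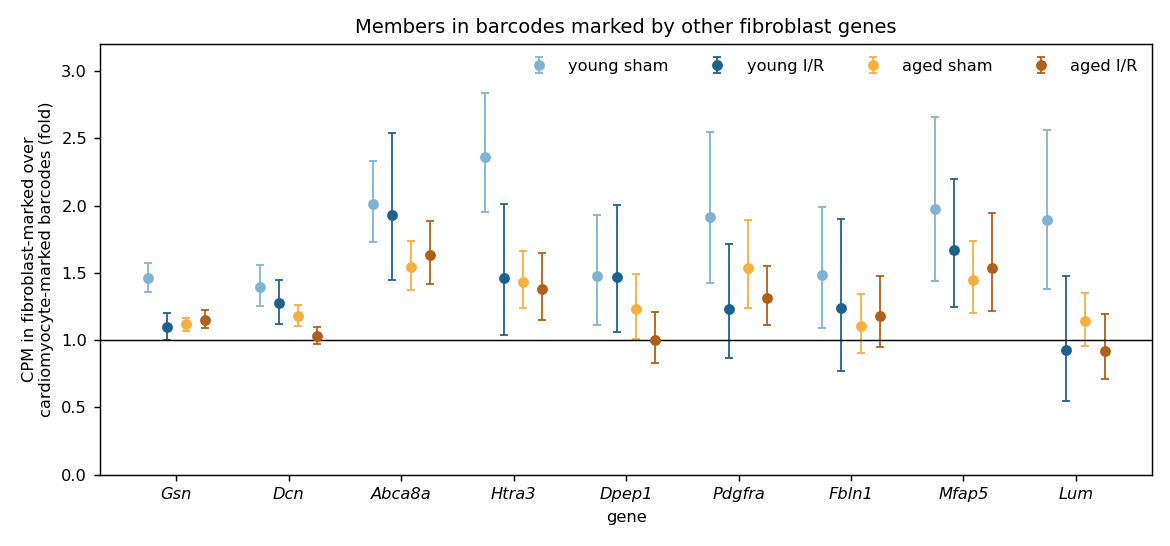
Fold of CPM in fibroblast-marked over cardiomyocyte-marked barcodes (y axis) for 9 genes (x axis) in each library, with bars for 95% counting intervals. The intervals of Abca8a, Htra3, Mfap5 and Gsn lie above 1 in all 4 libraries, and the highest value is 2.36 for Htra3 in young sham. Only Lum has values below 1, in the I/R libraries, with intervals that hold 1.

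Inside fibroblast-marked barcodes the CPM ratios had the direction seen over all barcodes for 9 of 9 members in young I/R and 9 of 10 in aged I/R. For aged over young sham this held for 7 of 10 members, and for aged over young I/R for 8 of 9. The share of all genes that kept their direction is not given here. In young I/R and in aged I/R, each over sham, 3 of the intervals in marked barcodes held 0. For aged over young I/R 4 did. Relative to the median gene, some directions in young I/R differed between all and fibroblast-marked barcodes. These were Pdgfra (0.40 and -0.29), Dcn (0.12 and -0.22), Gsn (0.27 and -0.31), Dpep1 (0.11 and -0.16) and the sum (0.07 and -0.47). Abca8a had 215 CPM (young sham) and 61.3 CPM (young I/R) at a log2 ratio of -1.81 (-2.25 to -1.39), and Htra3 141 and 43.6 CPM, a ratio of -1.69 (-2.22 to -1.19). Lum had 51.8 and 19.7 CPM (-1.39, on 54 and 19 UMIs) in young and 65.6 and 23.3 CPM (-1.5) in aged hearts. Gsn in aged hearts had 981 CPM after sham and 504 after I/R (-0.96), while Pdgfra had 48.2 and 66.4 (0.46). The median of all genes in these barcodes was -0.21 in young I/R and 0.10 in aged I/R, so none of these named ratios changes direction relative to it. For all members together the ratio was -0.68 in young and -0.58 in aged I/R, and 0.11 in aged over young sham, where 6 of 10 intervals held 0. The 20 marking genes themselves took 6494, 4698, 4756 and 3045 CPM in the fibroblast-marked barcodes of the 4 libraries. The marked class was thus not alike between libraries, and the part of this in the member ratios was not tested.

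Within fibroblast-marked barcodes of the 4 libraries, the number of member pairs was still 1.12 times the expected number (1.09 to 1.15). By library it was 1.19 (1.08 to 1.30) in young sham and 1.12 (0.97 to 1.29) in young I/R, where the interval includes 1. In aged sham it was 1.11 (1.06 to 1.17) and in aged I/R 1.11 (1.06 to 1.15). Mfap5 and Htra3 reached 1.73 (1.25 to 2.34) on 42 barcodes, Fbln1 and Htra3 1.67 (1.17 to 2.30) on 37, Dpep1 and Abca8a 1.63 (1.26 to 2.07) on 66, and Pdgfra and Mfap5 1.55 (1.04 to 2.23) on 29. Dcn and Lum reached 1.31 (1.08 to 1.57) on 116 barcodes. Some pairs thus remained above expectation among fibroblast-marked barcodes, though the interval of most pairs held 1. The pairs named here were picked after their values were seen. Others were below 1, such as Fbln1 and Mfap5 (0.69, 0.31 to 1.31) and Dpep1 and Fbln1 (0.81, 0.40 to 1.44), with intervals that held 1.

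Genes outside the set were ranked by how far they exceeded expectation in barcodes with at least 2 members, taking the lowest ratio over the 4 libraries, among 7533 genes with at least 300 UMIs in every library. The 15 highest were Hmcn2, Mxra8, Gm17167, Abca8b, Meg3, Cilp, Dnm1, Slc1a5, Adamts5, Scn7a, Medag, Stx2, Col5a2, Sap25 and C1s1. Hmcn2, a hemicentin of the extracellular matrix, had ratios of 1.79, 1.35, 1.32 and 1.34, and Mxra8, a matrix-remodelling associated membrane protein, 1.80, 1.60, 1.30 and 1.30. Cilp, a matrix protein of fibroblasts, had 1.80, 1.26, 1.21 and 1.22, and Adamts5, a protease that cleaves proteoglycans, 1.74, 1.40, 1.21 and 1.2. Only 3 of the 15 (Abca8b, Cilp and Col5a2) are on a gene list used here. Of the ranked genes 932 (12.4%) were above 1 in all 4 libraries, and of the 19 ranked fibroblast genes 16 were. Several of the 15 were also low in young I/R. Log2 ratios were -1.96 for Meg3, -1.84 for Abca8b, -1.69 for Adamts5, -1.56 for Sap25 and -1.39 for both Scn7a and Mxra8. Col5a2 and Medag were at -0.52 and -0.47. The median of all genes was -0.44 there, and 41.9% of all genes were at least 1.5-fold lower.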

How the data were processed

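The deposited matrices hold raw UMI counts per gene and barcode. Per the labels, the authors prepared 10× Chromium libraries, and the submitters' processing notes name Cell Ranger 6.0.2 and mm10. The deposited counts carry no scaling, and neither barcodes nor doublets were removed here. Because filtering and free RNA were not corrected, a UMI need not come from a cell in that droplet, and a barcode need not hold a cell. No normalisation by the authors, cell name or cluster was used.

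Groups came from the labels. UMIs were summed per library and divided by the library total (CPM), with exact Poisson intervals for levels, exact conditional intervals for ratios and exact binomial intervals for shares. Depth was 25836175 to 66767829 UMIs per library. With 1 library per condition no test was run. Expected pairs were computed among barcodes with equal UMI totals, joining totals with under 200 barcodes. Genes entered counts by fold with at least 100 UMIs over both libraries. Alternatives were scaling by the median of gene-wise ratios, scaling without mitochondrial genes, Gm42418 and Malat1, barcodes with at least 200 detected genes, leaving out the deepest 1% of barcodes, thinning to 200 UMIs (25914, 4608, 4424 and 0 shallower barcodes left out), a lower UMI minimum of 20, other marker numbers and leaving out Gsn and Dcn. The text names all members, the most counted genes of each list, and the 15 partner genes. The members, lists and rules were chosen with earlier results of these data known. Calculations were tested on simulated data. Python 3.11.15, numpy 2.4.6, scipy 1.17.1, pandas 2.3.3 and matplotlib 3.10.9 were used.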

Additional observations from a re-analysis of the deposited data

Results flagged for a closer look

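Mfap5 went in opposite directions with I/R at the 2 ages. I/R against sham gave a log2 ratio of 0.27 (0.15 to 0.40) in young hearts and -0.58 (-0.67 to -0.48) in aged hearts, a difference of -0.85 (-1.0 to -0.69), and of -1.38 relative to the median genes. These values are over all barcodes. In fibroblast-marked barcodes the young ratio was 0.19 (-0.37 to 0.75), on 58 UMIs after I/R and 55 after sham, so no rise was seen beyond counting error. The aged ratio there was -0.69 (-0.98 to -0.40). With 1 library per condition the difference itself was not tested, and the intervals cover counting error only.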

How the results depend on the processing

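Relative to the median of gene-wise ratios, the summed log2 ratio was 0.069 in young I/R, -0.64 in aged I/R, 0.59 in aged over young sham and -0.15 in aged over young I/R. Without mitochondrial genes, Gm42418 and Malat1 in the totals these were -0.23, -0.64, 0.53 and 0.11. With barcodes of at least 200 genes the sum was -0.23 in young I/R, 0.58 in sham hearts and 0.25 in I/R hearts, and thinned to 200 UMIs it was 0.43 in sham hearts. Without Gsn and Dcn the sums were -0.81, -0.46, 0.15 and 0.50. By gene-wise ratios the members at least 1.5-fold higher became 1 in young I/R, 0 in aged I/R (0 also without mitochondrial genes, Gm42418 and Malat1), 4 in aged over young sham and 2 in aged over young I/R, and 2 were lower there, while the lower counts went from 3 to 2 in young I/R and from 4 to 5 in aged I/R. With a minimum of 20 UMIs, 4 in place of 3 members were lower in young I/R. The pair ratio was 1.31 in young sham for barcodes with at least 200 genes and 1.07 in aged I/R when thinned.

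In fibroblast-marked barcodes the young I/R sum was -0.84 with at least 3 markers, -0.54 without mitochondrial genes, Gm42418 and Malat1 and -0.47 by gene-wise ratios. The aged I/R sum was -0.68 under both scalings, the sham sum -0.063 with 3 markers, 0.20 and 0.24 under the scalings, and the I/R sum 0.056 and -0.087. With at least 3 members in a barcode, 7 of the 15 partner genes were shared. Leaving out the deepest 1% of barcodes moved none of the 48 results computed that way beyond its counting interval. No value at or past 1.5-fold changed direction under any of these alternatives. The causes of these differences were not tested. No paired analysis was possible because each condition is 1 library. Depth limits Tcf21 most, with 34 to 132 UMIs per library.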

Other observations

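Pairs of members with other fibroblast genes, picked after their values were seen, included Htra3 with Pi16, a marker of adventitial fibroblasts, found together in 407 barcodes of the 4 libraries where 289 were expected (1.41, 1.27 to 1.55). Pdgfra and the collagen receptor gene Ddr2 met in 234 barcodes for 168 expected (1.39, 1.22 to 1.58), and Abca8a and Ddr2 in 436 for 315 (1.39, 1.26 to 1.52). Mfap5 and Ltbp2, a microfibril-associated binding protein of the activated fibroblast list, met in 72 barcodes for 46.0 expected (1.57, 1.23 to 1.97).

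The excess of member pairs was larger in deeper barcodes. In young sham the ratio was 1.07 (1.01 to 1.14) in barcodes at or below the median UMI number and 1.29 (1.25 to 1.33) above it, while the summed member level was 1298 CPM in the first and 1164 CPM in the second. In aged I/R the corresponding ratios were 1.02 (0.997 to 1.05) and 1.07 (1.05 to 1.08), at 1138 and 1126 CPM.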
